A study of Mus musculus with 12 samples.

Results

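The common response of the murine ovarian cancer lines ID8 and 28-2 to the miR-200 family was taken as the average difference between cells carrying both miR-200 clusters (200f) and cells carrying an empty vector (EV), with the cell line as a block. All 12 of the 12 libraries of the series entered the comparison, 3 each from ID8-200f, 28-2 200f, ID8EV and 28-2EV cells grown as 2D cultures. The 200f cells of both lines had been infected with 2 lentiviruses, 1 holding the cluster of miR-200c and miR-141 under a CMV promoter with mCherry and hygromycin resistance, and 1 holding the cluster of miR-200b, miR-200a and miR-429 with puromycin resistance. The EV cells carried a lentivirus with EGFP, puromycin resistance and mCherry but no miRNA. Selection also differed, as EV cells were kept in 30 µg/ml puromycin, ID8-200f cells in 40 µg/ml puromycin and 50 µg/ml hygromycin, and 28-2 200f cells in 60 µg/ml puromycin and 1000 µg/ml hygromycin. The miRNAs, the hygromycin and the higher puromycin dose therefore cannot be told apart in either line. Of 57010 genes in the count files, 12498 had enough counts in both lines and were tested, while 782 passed the count filter in ID8 only and 181 in 28-2 only and were left out.

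The miR-200 family consists of small RNAs that pair with messenger RNAs, mostly in the 3′UTR, through a short seed at bases 2 to 8, which lowers translation and stability of the target. In epithelial cells the family is known for holding down the transcription factors Zeb1 and Zeb2, which repress epithelial genes, and loss of the family accompanies epithelial-mesenchymal transition (EMT), in which cells give up junctions and gain a matrix-producing, migratory state. The mature sequences, from the RefSeq table for GRCm38.p6, are shown because the 2 vectors together supply both seeds of the family, which differ at a single base. The seed is in capitals, 5′ to 3′.
miR-200b-3p: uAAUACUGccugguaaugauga
miR-200c-3p: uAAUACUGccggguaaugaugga
miR-429-3p: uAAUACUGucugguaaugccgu
miR-200a-3p: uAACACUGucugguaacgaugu
miR-141-3p: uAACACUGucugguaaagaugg
The first 3 share the seed AAUACUG and the last pair share AACACUG. The miRNA genes Mir200a, Mir200b, Mir200c, Mir141 and Mir429 had 0 counts throughout the 12 libraries, and the miRNAs themselves were not measured here.

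Total counts were 16390953 to 23063875 per library. In a principal component analysis of the 500 most variable genes, the first component, with 51.9% of the variance, placed the 6 200f libraries at -42.7 to -14.99 and the 6 EV libraries at 19.3 to 39.3. The second component (22.6%) separated the lines. Replicates of 28-2 were spread wider than those of ID8, with a biological coefficient of variation of 0.280 in 28-2 and 0.101 in ID8 when each was fitted alone. 28-2EV replicate 2 lay farthest from its group. In 291 of the 447 genes that passed below (65.1%) it was the 28-2EV library nearest to 28-2 200f. Every other group also had a library that was most often nearest to the other vector of its line. These were ID8-200f replicate 1 (58.4%), 28-2 200f replicate 1 (55.3%) and ID8EV replicate 1 (53.9%). The methods call the samples independent without saying whether they came from separate infections, so p-values measure the spread between these samples, which may be technical in part. Epithelial keratins were detected in all 4 groups, whereas the 6 leukocyte and 5 endothelial markers listed were near 0 except for 3. Adgre1 and Cdh5 had 0 counts in every library and Ptprc, Csf1r, Lyz2, Kdr, Tek and Vwf at most 9 counts over any group, while Cd14 had 181 to 631, Cd68 86 to 201 and Pecam1 38 to 119 counts over a group. In bulk RNA, fewer cells of a type and less RNA per cell cannot be told apart.

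**Figure D1:**
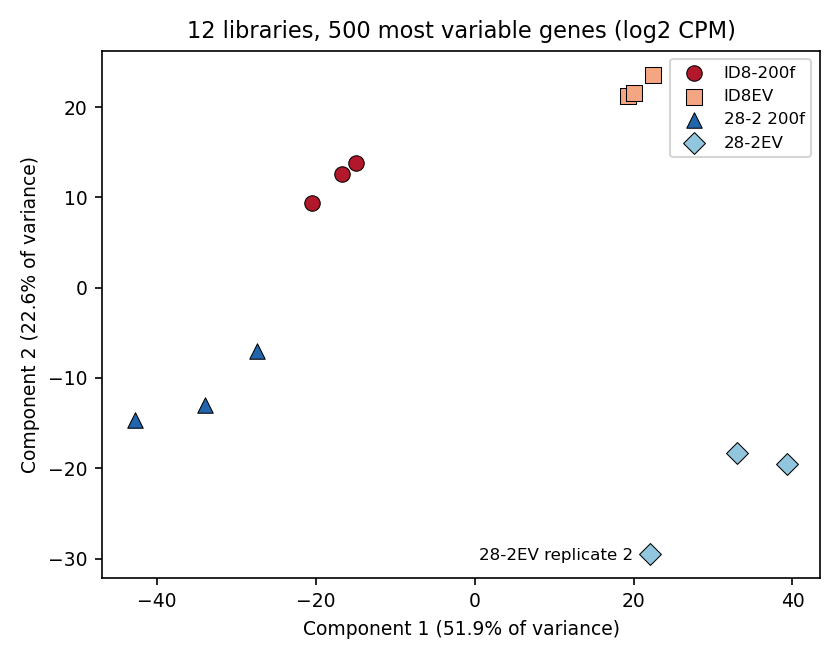
Principal components 1 and 2 of the 12 libraries, computed from log2 CPM of the 500 most variable genes, with 1 point per library and a marker per group. The 200f libraries of both lines sit at negative values of component 1 (-42.7 to -14.99) and the EV libraries at positive values (19.3 to 39.3), with 28-2EV replicate 2 at the bottom of its group.

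The 200f cells of both lines gained epithelial genes such as Krt7 and Epcam and lost genes of the extracellular matrix such as Col6a1 and Col6a2. Requiring an FDR below 0.01 together with a log2 fold change above 1 in size, 447 of 12498 genes passed in edgeR's quasi-likelihood test with line as a block (3.58% of all genes tested). Of these, 139 were higher (1.11%) and 308 lower (2.46%) in 200f than in EV cells, and 183 had changed over 4-fold and 36 over 16-fold. The genes that were lower had been moderately expressed, with a median of 4.07 CPM in 200f and 17.7 CPM in EV libraries, whereas those that were higher had a median of 20.7 CPM in 200f and 5.64 CPM in EV libraries. At an FDR under 0.05 alone, 2392 genes passed (19.1%), 1106 of them higher (8.85%) and 1286 lower (10.3%). Without 28-2EV replicate 2, 753 genes passed in place of 447, 209 higher and 544 lower. CPM here and below are per-million counts of the tested genes after TMM scaling.

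The 447 genes often differed in size between the lines. They had been chosen on the average of both lines in these same libraries, which goes far to fix a shared direction, so their signs and overlaps by line are a description and not a test. All 447 genes had the same sign in ID8 and in 28-2 when each line was fitted alone, as did 67.0% of all genes tested. In 383 of the 447 (85.7%) the 3 values of 200f and the 3 of EV did not overlap in either line and lay in the same direction, 127 of them higher and 256 lower. Among all genes tested this share was 12.2%, with 5.95% higher and 6.27% lower. Another 63 were free of overlap in ID8 only and 1 in 28-2 only. Fitted alone, 362 of the 447 passed the same cut-off in ID8, 54 in 28-2, 42 in both and 73 in neither. The log2 fold change was larger in size in 28-2 for 284 of them and larger in ID8 for 163. The test of the difference between the lines, the interaction of line and vector, passed an FDR of 0.05 for 48 of the 447, and for 2.83% of all genes tested. Across all 12498 genes the log2 fold changes of the lines correlated with a Pearson's r of 0.476 and a Spearman's correlation of 0.453, a description over genes that share libraries and are not independent.

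**Figure D2:**
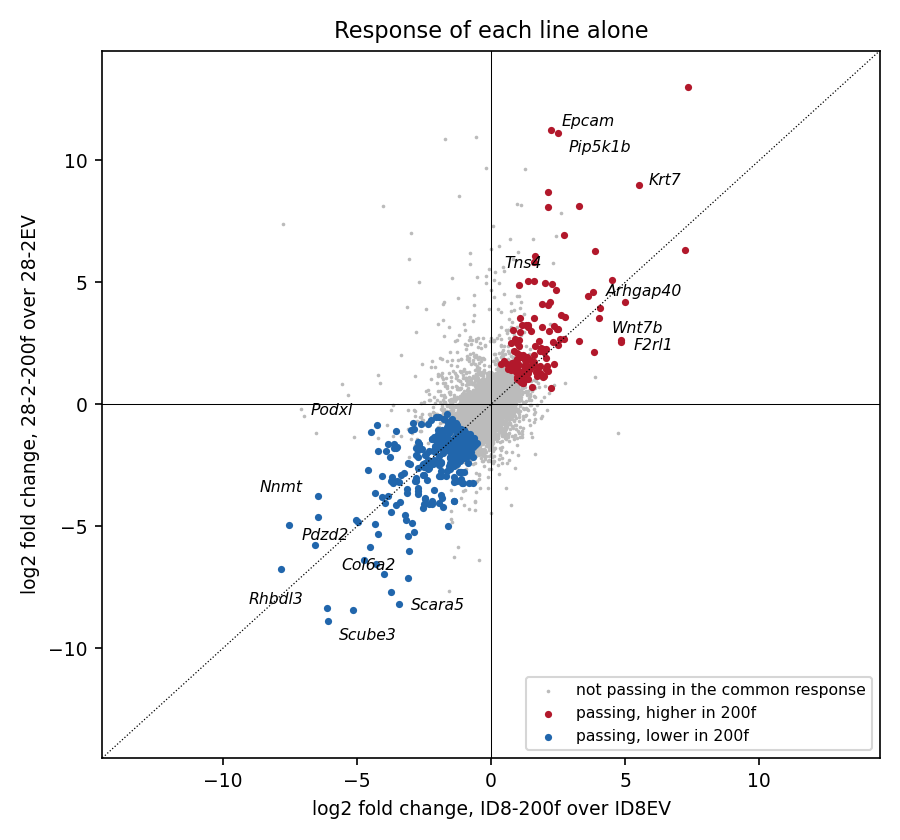
Log2 fold change of 200f over EV in ID8 (x axis) and in 28-2 (y axis), each line fitted alone, with 1 point per gene and the dotted line marking equal values. The 139 genes passing as higher (red) all lie in the upper right quadrant and the 308 passing as lower (blue) in the lower left, while Epcam and Pip5k1b lie far above the dotted line and F2rl1 and Podxl show larger changes in ID8.

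Krt7, a keratin of simple epithelia, showed the largest increase among genes with at least 5 CPM in the higher group of each line. It had 97.1, 101.2 and 92.5 CPM in ID8-200f cells, against 1.82, 2.21 and 2.28 CPM in ID8EV cells. In the 28-2 line it reached 172, 254 and 1191 CPM in 28-2 200f cells, against 0.274, 1.21 and 1.70 CPM in 28-2EV cells. The 200f values exceeded the EV values in both lines, with 28-2 200f replicate 3 far above its group, and the common log2 fold change was 7.13 ± 0.78 (SE, edgeR adjusted p = 0.000106) or 6.41 without that library. Arhgap40, which encodes a protein with a GTPase-activating domain, had the smallest adjusted p of all genes tested. Its levels were 65.7, 65.3 and 65.3 CPM in ID8-200f cells, against 4.89, 5.67 and 3.36 CPM in ID8EV cells. They were 218, 207 and 208 CPM in 28-2 200f cells, against 11.1, 8.69 and 5.89 CPM in 28-2EV cells. The 3 libraries of each 200f group were nearly identical and none came near EV (log2 fold change 4.23 ± 0.20, adjusted p = 4.44e-07).

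Several of the other large increases were in secreted ligands. Wnt7b, a Wnt ligand of epithelia, measured 21.9, 28.7 and 24.99 CPM in ID8-200f cells, against 1.02, 1.25 and 2.24 CPM in ID8EV cells. For 28-2 the values were 19.3, 29.9 and 63.3 CPM in 28-2 200f cells, against 3.40, 3.97 and 2.31 CPM in 28-2EV cells. Separation was complete in both lines and the size similar, with a common log2 fold change of 3.78 ± 0.31 (adjusted p = 2.18e-05), 4.02 in ID8 and 3.54 in 28-2. Artn, a neurotrophic ligand of the RET receptor system, had a common log2 fold change of 3.97 ± 0.42 (adjusted p = 7.61e-05), with 13.2, 17.3 and 11.1 CPM in ID8-200f cells, against 1.14, 1.78 and 0.474 CPM in ID8EV cells. Areg, the EGF receptor ligand amphiregulin, increased by 2.93 ± 0.46 on the log2 scale (adjusted p = 0.00124). It stood at 17.3, 23.2 and 44.97 CPM in 28-2 200f cells, against 1.97, 10.4 and 1.64 CPM in 28-2EV cells. The exception within 28-2EV was replicate 2, whose value still lay below all 28-2 200f libraries. Fgfbp1 (3.23), a carrier that releases FGF from the matrix, and S100a7a (3.08), a secreted calcium-binding protein, were also among the 15 largest increases, as were the pantetheinase Vnn1 (3.15), the adaptor Dok2 (3.06) and cardiac troponin Tnnt2 (2.70), given as common log2 fold changes with adjusted p of 0.000348 or less for Vnn1, Fgfbp1 and Tnnt2, 0.000656 for S100a7a and 0.000777 for Dok2.

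Some of the most uniform increases were modest in size. Iqgap2, a scaffold of the cytoskeleton, had 118, 103 and 125 CPM in ID8-200f cells, against 35.6, 28.3 and 27.3 CPM in ID8EV cells. For 28-2 it had 117, 136 and 117 CPM in 28-2 200f cells, against 24.9, 32.8 and 18.5 CPM in 28-2EV cells. All 6 200f values were above 100 CPM and all EV values under 36 CPM (log2 fold change 2.10 ± 0.14, adjusted p = 4.02e-06). Ptgs2, the inducible cyclooxygenase of prostaglandin synthesis, rose by 1.99 in ID8 and 2.15 in 28-2 on the log2 scale (common 2.07 ± 0.17, adjusted p = 2.18e-05). Its levels in 28-2 were 291, 369.6 and 458 CPM in 28-2 200f cells, against 63.1, 109 and 79.6 CPM in 28-2EV cells. Parm1, a mucin-like membrane protein (2.43 ± 0.22), B3gnt3, which extends O-glycans (2.21 ± 0.19), Elovl7, a fatty acid elongase (1.44 ± 0.13), Ell2, a transcription elongation factor (1.06 ± 0.09), and Igf2bp2, an RNA-binding protein (1.05 ± 0.10), completed the increases with the smallest adjusted p, all between 2.36e-05 and 3.22e-05. For these 5 genes the fitted responses of the lines differed by 0.82 or less on the log2 scale, and none of these differences passed the interaction test.

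Scube3, a secreted and membrane-bound glycoprotein with CUB and EGF-like domains, had the largest decrease among genes with at least 5 CPM in the higher group of each line. Its levels were 0.290, 0.136 and 0.0579 CPM in ID8-200f cells, against 11.6, 11.7 and 11.2 CPM in ID8EV cells. Those of 28-2 were 0.340, 0.125 and 0.180 CPM in 28-2 200f cells, against 74.0, 132 and 115 CPM in 28-2EV cells. Every 200f value was under 0.4 CPM, while EV values were higher in 28-2 than in ID8, and the common log2 fold change was -7.93 ± 0.41 (adjusted p = 6.52e-07). Rhbdl3, a rhomboid-like membrane protein, fell in the same manner. It had 0.579, 0.227 and 0.289 CPM in ID8-200f cells, against 19.2, 23.5 and 34.1 CPM in ID8EV cells, and 0.113, 0 and 0.120 CPM in 28-2 200f cells, against 30.8, 18.1 and 36.3 CPM in 28-2EV cells. The EV ranges of the lines overlapped, and the common log2 fold change was -6.85 ± 0.42 (adjusted p = 2.21e-06). Pdzd2, a protein with PDZ domains, followed among these genes with -5.80 ± 0.48 (adjusted p = 2.18e-05).

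Other large decreases fell on matrix, signaling and metabolic genes. Nnmt, which methylates nicotinamide, had 0.338, 0.499 and 0.174 CPM in ID8-200f cells, against 25.4, 32.5 and 35.1 CPM in ID8EV cells. In the other line the values were 3.57, 2.93 and 0.420 CPM in 28-2 200f cells, against 37.4, 19.2 and 38.3 CPM in 28-2EV cells, lowest in 28-2 200f replicate 3, and the common log2 fold change was -4.84 ± 0.55 (adjusted p = 0.000154). Trf, transferrin, a carrier of iron, was -3.998 on the log2 scale, close in ID8 (-3.96) and 28-2 (-4.04). Levels of Trf were 42.6, 25.3 and 34.2 CPM in ID8-200f cells, against 438, 521 and 625 CPM in ID8EV cells. Notch3, a Notch receptor, had 1.417, 1.62 and 1.56 CPM in 28-2 200f cells, against 66.3, 11.8 and 56.4 CPM in 28-2EV cells, where 28-2EV replicate 2 lay nearest to 28-2 200f without reaching it (log2 fold change -3.99 ± 0.47, adjusted p = 0.000186). Rgs3, a regulator of G-protein signaling (-5.51), Zcchc24, a zinc finger protein (-5.15), Rcn3, a calcium-binding protein of the endoplasmic reticulum (-5.08), the lipid transporter Abca9 (-4.002), the ceramide synthase Cers4 (-3.95), the adhesion molecule Flrt1 (-3.80) and the scavenger receptor Scara5 (-5.66) passed as well, with adjusted p of 0.00075 or less. For Zcchc24 the 28-2EV libraries were uneven, with 0.227, 0.187 and 0 CPM in 28-2 200f cells, against 44.8, 5.18 and 41.9 CPM in 28-2EV cells.

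The decreases with the smallest adjusted p included moderate ones that were alike in both lines. Rnf213, a large ubiquitin ligase, had 500.4, 397 and 442 CPM in ID8-200f cells, against 1421, 1166 and 1676 CPM in ID8EV cells. For 28-2 the levels were 401, 449 and 529 CPM in 28-2 200f cells, against 1315, 1678 and 1235 CPM in 28-2EV cells. The ranges of the lines nearly coincided within each vector (log2 fold change -1.64 ± 0.12, adjusted p = 9.54e-06). Pdgfra, the PDGF receptor of mesenchymal cells, had 2.12, 1.81 and 2.31 CPM in ID8-200f cells, against 10.4, 9.76 and 10.4 CPM in ID8EV cells, and 1.53, 1.68 and 2.40 CPM in 28-2 200f cells, against 12.9, 8.06 and 13.0 CPM in 28-2EV cells. It fell by similar amounts in ID8 (-2.30) and 28-2 (-2.59), with a common log2 fold change of -2.44 ± 0.18 (adjusted p = 9.97e-06). Sspn, sarcospan, of the dystrophin complex (-2.70 ± 0.20), Fhl1, a LIM domain protein (-2.66 ± 0.20), and Adamts14, a protease that trims procollagen (-3.39 ± 0.27), fell with adjusted p of 2.03e-05 or less.

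**Figure D3:**
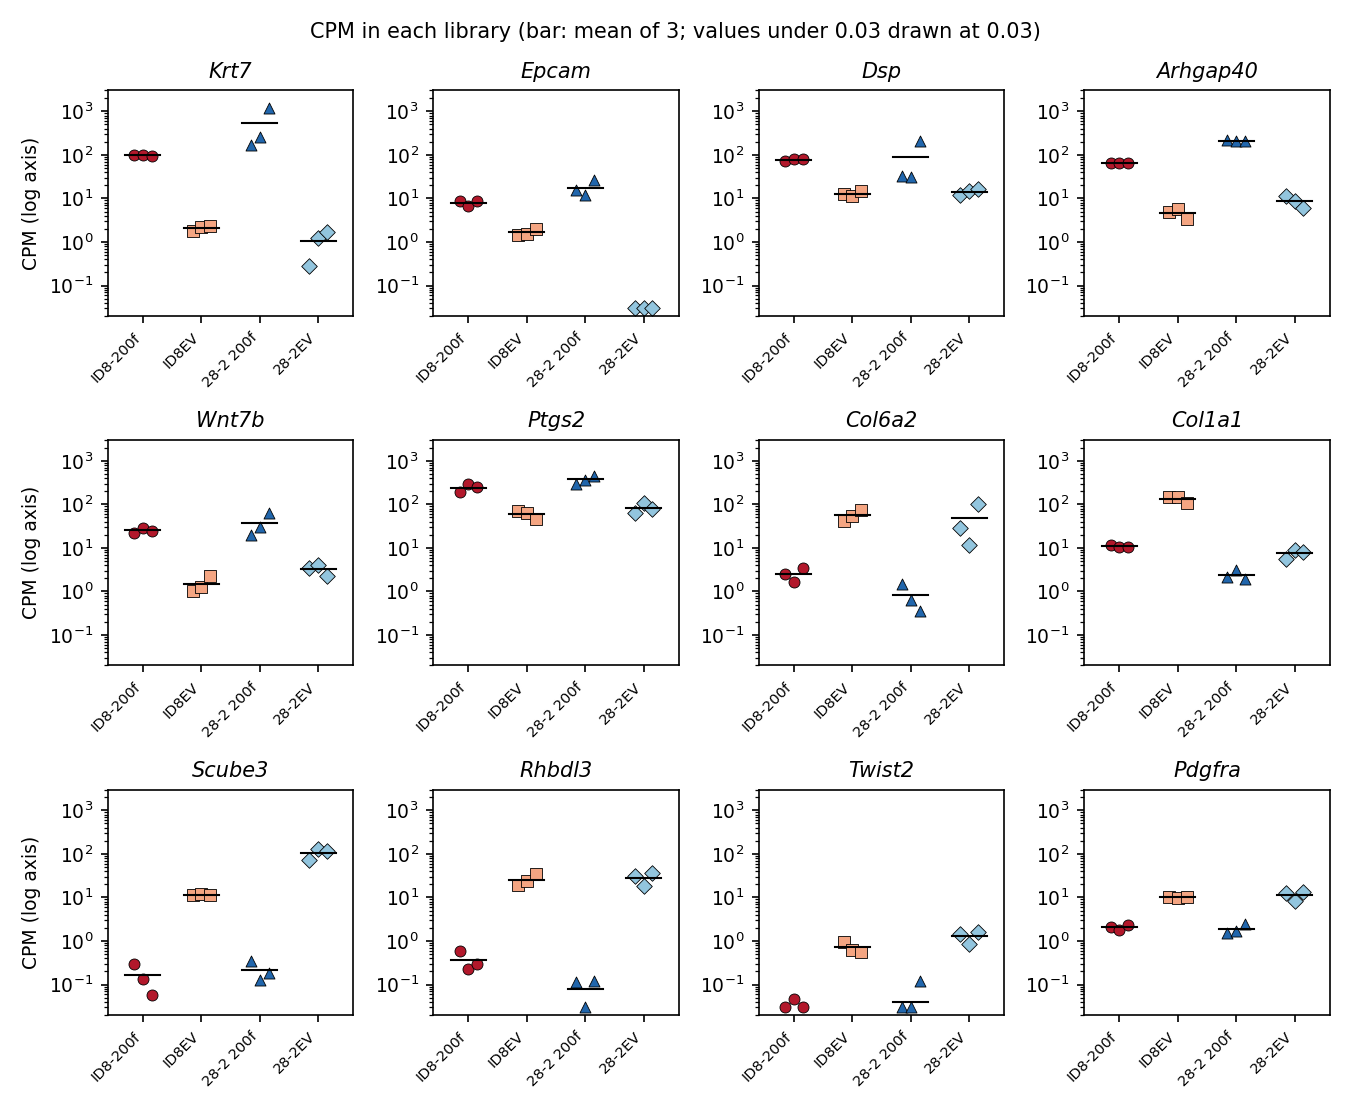
CPM in each of the 12 libraries (log axis) for 12 genes of the response, with 200f left of EV in each line, 1 marker per library and a black bar at the mean of 3 where it lies within the axis. Values under 0.03 CPM, including the 0 values of Epcam in 28-2EV, are drawn at 0.03. In all 12 panels the 200f markers of a line do not overlap its EV markers.

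Among genes that build epithelial sheets, all tested keratins and under 50% of the tested desmosome and junction genes were higher in 200f cells. Gene lists are given as counts at an FDR under 0.05 in edgeR, with the line as a block. Each is to be read beside the shares over all genes tested, 8.85% higher and 10.3% lower. Where 1 of these counts is 0, the count in that direction was also 0 at an unadjusted p under 0.05 and in DESeq2 unless other values stand beside it. Of 15 keratins listed, 6 were tested and 6 were higher, beside 8.85% of all genes tested, with a median log2 fold change of 1.12 against -0.0005 for all genes. The main keratins of simple epithelia rose by smaller amounts, Krt18 with 0.62 ± 0.10 (adjusted p = 0.0015) and Krt8 with 0.47 ± 0.09 (adjusted p = 0.00403), and their values did not overlap between vectors in either line. Krt14, a keratin of basal epithelium, had 9.81, 12.4 and 288 CPM in 28-2 200f cells, against 1.37, 3.34 and 0.911 CPM in 28-2EV cells, and its common log2 fold change of 4.09 ± 1.01 (adjusted p = 0.0159) was 2.40 without 28-2 200f replicate 3. The 6 epithelial marker genes listed (Epcam, Cdh1, Krt7, Krt8, Krt18 and Krt19) summed to 3949 to 4362 CPM of all counts in ID8-200f and 3139 to 3427 CPM in ID8EV libraries, and to 5155 to 6666 CPM in 28-2 200f and 2895 to 3157 CPM in 28-2EV libraries, and 5 of them were higher. Among 13 tested desmosome and plakin genes of 16 listed, 6 were higher and 0 lower. Dsp, desmoplakin, which ties desmosomes to keratin filaments, had 70.8, 80.9 and 78.7 CPM in ID8-200f cells, against 12.3, 11.4 and 15.001 CPM in ID8EV cells. In 28-2 it had 32.5, 31.4 and 211 CPM in 28-2 200f cells, against 11.7, 14.7 and 16.7 CPM in 28-2EV cells. All 200f libraries were above EV, again with 28-2 200f replicate 3 highest, and the log2 fold change of 2.62 ± 0.42 (adjusted p = 0.00135) became 1.95 without it. Perp, a desmosomal membrane protein that is also a p53 target, rose evenly (0.85 ± 0.08, adjusted p = 4.06e-05), and the plakophilin Pkp1 rose with 4.06 ± 0.70 (adjusted p = 0.00211).

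Of 16 tested junction and polarity genes, out of 40 listed, 7 were higher and 1 lower, 7 and 2 without 28-2EV replicate 2 and 2 lower also without 28-2 200f replicate 1 or 3. Without 28-2EV replicate 3 or 28-2 200f replicate 2, 5 were higher. The other 24 listed genes did not reach the count filter in both lines. The shares were 43.75% higher and 6.25% lower, beside 8.85% and 10.3% of all genes tested. Epcam, an adhesion molecule of epithelia, had 8.79, 6.67 and 8.56 CPM in ID8-200f cells, against 1.48, 1.54 and 1.98 CPM in ID8EV cells. In the 28-2 line it had 15.3, 11.9 and 25.9 CPM in 28-2 200f cells, against 0, 0 and 0 CPM in 28-2EV cells. With 892 counts over the 3 28-2 200f libraries and 0 over the 3 28-2EV libraries, it was at least 308-fold higher in 28-2 200f cells, with the EV group set at a floor of 3 counts, and the common log2 fold change of 4.198 ± 0.88 (adjusted p = 0.00676) depends on how that 0 is treated. Patj, a scaffold of tight junctions, measured 35.5, 36.7 and 36.3 CPM in ID8-200f cells, against 18.2, 15.9 and 24.96 CPM in ID8EV cells, and 64.9, 50.3 and 74.7 CPM in 28-2 200f cells, against 12.6, 12.2 and 16.6 CPM in 28-2EV cells, a common log2 fold change of 1.53 ± 0.24 (adjusted p = 0.00118). Esrp2, a splicing factor of epithelia, increased less (0.63 ± 0.11, adjusted p = 0.0021), and Grhl1, a transcription factor of epithelial barriers, increased more in 28-2 (3.04) than in ID8 (0.82). Lsr, a protein of tricellular junctions, was lower (-0.78 ± 0.15, adjusted p = 0.00442). Cdh1, which encodes E-cadherin, did not pass in edgeR, with a common log2 fold change of 1.16 ± 0.40 (adjusted p = 0.0588), but its 200f and EV values did not overlap in either line. For Cdh1 the ID8 levels were 37.3, 35.7 and 33.8 CPM in ID8-200f cells, against 28.6, 28.1 and 26.1 CPM in ID8EV cells. The 28-2 levels were 3.00, 4.73 and 1.56 CPM in 28-2 200f cells, against 0.822, 0.173 and 0.425 CPM in 28-2EV cells.

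Markers of mesothelium and the ovarian surface epithelium, the layer that lines the body cavity and covers the ovary, were mostly lower in common, more so in ID8. Among 14 tested of 17 listed, 2 were higher (14.3%) and 8 lower (57.1%), beside 8.85% and 10.3% of all genes tested. The median log2 fold change was -0.916 in ID8 and -0.262 in 28-2. In both lines 4 were lower without overlap, and 3 passed the interaction test at an FDR under 0.05. Some markers that fell in ID8 rose in 28-2. Leaving out single libraries, with the filter applied anew, gave 6 to 11 lower. The lowest count, 6, came when any ID8-200f replicate or 28-2EV replicate 3 was left out. Upk3b, a mesothelial membrane protein, had 397, 280.0 and 328 CPM in ID8-200f cells, against 1202, 1363 and 1869.5 CPM in ID8EV cells. In the second line it had 99.7, 79.9 and 212 CPM in 28-2 200f cells, against 247, 251 and 482 CPM in 28-2EV cells (common log2 fold change -1.73 ± 0.28, adjusted p = 0.0015). Lrrn4, a leucine-rich membrane protein of mesothelium (-2.55 ± 0.22, adjusted p = 2.71e-05), and Wt1, a transcription factor of this lineage (-0.66 ± 0.12, adjusted p = 0.00261), were also lower in both lines. Mesothelin, Msln, was higher (0.77 ± 0.15, adjusted p = 0.00432), with 619, 597 and 607 CPM in ID8-200f cells, against 365, 373 and 371 CPM in ID8EV cells. The summed level of all 17 listed markers was 4261 to 5049 CPM in ID8-200f and 6699.7 to 8347 CPM in ID8EV libraries, but 4662 to 5758 CPM in 28-2 200f and 3987 to 5668 CPM in 28-2EV libraries, which overlap. Fibroblast markers moved too, 3 of 4 tested being lower (Pdgfra, Col1a1 and Col3a1), with a summed level over the 6 listed of 115 to 171 CPM in ID8-200f and 480.4 to 532 CPM in ID8EV libraries, and of 212 to 400.3 CPM in 28-2 200f and 81.6 to 487 CPM in 28-2EV libraries. Lum had 0 counts in every library. Of 5 endothelial markers 1 was tested, Pecam1, which was lower (-1.29 ± 0.41, adjusted p = 0.0452) and lost its call in 10 of the 12 fits that left out 1 library, and the list summed to at most 3.42 CPM in any library. Of 6 leukocyte markers, which summed to 5.52 to 16.5 CPM, 2 were tested. Cd14, a co-receptor for endotoxin, was higher (1.41 ± 0.22, adjusted p = 0.00111). Cd68 went the other way without passing, with a common log2 fold change of -0.52. At an unadjusted p under 0.05 the leukocyte counts were 1 higher and 1 lower. The part of cell type composition in these results was not tested.

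Most collagen chains, the fibers and networks of the extracellular matrix, were lower. Of 17 collagen chains tested (34 listed), 10 were lower and 0 higher, beside 10.3% lower over all genes tested, and the median log2 fold change was -1.04. Col6a1 and Col6a2 encode chains of the microfibrillar type VI collagen. Col6a1 had 31.7, 16.2 and 26.5 CPM in ID8-200f cells, against 273, 299 and 406 CPM in ID8EV cells, and 14.3, 9.34 and 9.49 CPM in 28-2 200f cells, against 177, 108 and 424 CPM in 28-2EV cells, a common log2 fold change of -4.06 ± 0.34 (adjusted p = 2.36e-05). Col6a2 had 2.56, 1.63 and 3.41 CPM in ID8-200f cells, against 41.7, 54.0 and 73.4 CPM in ID8EV cells, and 1.47, 0.623 and 0.360 CPM in 28-2 200f cells, against 28.3, 11.9 and 103 CPM in 28-2EV cells, a common log2 fold change of -5.05 ± 0.56 (adjusted p = 0.000111). In both genes 28-2EV replicate 2 was the lowest of its group and still far above 28-2 200f. The fibrillar chains Col1a1 (-2.78 ± 0.34, adjusted p = 0.000223) and Col5a1 (-3.01 ± 0.39, adjusted p = 0.000368) fell as well. The basement membrane chains Col4a5 (-0.74 ± 0.11) and Col4a6 (-0.84 ± 0.11) fell less, both without overlap in either line.

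Genes that fold, trim and cross-link collagen were lower in part. Of 26 tested, 11 were lower (42.3%) and 3 higher (11.5%), beside 10.3% and 8.85% of all genes tested. Without 28-2EV replicate 2, 15 of the same 26 were lower, or 16 with the filter applied anew. In 9 of the 12 fits that left out 1 library, 2 were higher. Serpinh1, the collagen chaperone HSP47, had 528, 543 and 479.8 CPM in ID8-200f cells, against 806, 853 and 857 CPM in ID8EV cells, and 316, 397 and 318 CPM in 28-2 200f cells, against 1182, 791 and 885 CPM in 28-2EV cells, a log2 fold change of -1.08 ± 0.15 (adjusted p = 0.000634). Lox, which cross-links collagen and elastin (-1.57 ± 0.27, adjusted p = 0.0021), the transglutaminase Tgm2 (-2.10 ± 0.28, adjusted p = 0.000484) and the prolyl 3-hydroxylase P3h3 (-1.43 ± 0.26, adjusted p = 0.00334) were lower. Against this, the cross-linking enzyme Loxl4 (1.22 ± 0.17, adjusted p = 0.000496) and the prolyl 4-hydroxylase subunit P4ha2 (1.17 ± 0.19, adjusted p = 0.00152) were higher in both lines, without overlap.

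Matrix glycoproteins gave 12 lower (50.0%) and 3 higher (12.5%) of 24 tested, beside 10.3% and 8.85% of all genes tested. Without 28-2EV replicate 2 these were 14 and 5. Without 28-2 200f replicate 2, 8 were lower. Sparc, which binds collagen, was lower in every 200f library (-0.63 ± 0.09, adjusted p = 0.000612). Spp1, osteopontin, a ligand of integrins, went up. It had 2441, 2074 and 2401 CPM in ID8-200f cells, against 994, 965 and 559 CPM in ID8EV cells, and 2080.4, 2395 and 1160.3 CPM in 28-2 200f cells, against 625, 561 and 399 CPM in 28-2EV cells, a log2 fold change of 1.64 ± 0.20 (adjusted p = 0.000267). Matn2, a matrilin (-3.30 ± 0.33, adjusted p = 6.33e-05), and Emilin1, of elastic fibers (-2.39 ± 0.31, adjusted p = 0.000376), were lower, as was Fn1, fibronectin (-0.88 ± 0.23, adjusted p = 0.018). Fbln5, an elastic fiber protein near the count limit, had 3 counts over ID8-200f and 54 over ID8EV libraries, a ratio of 17.5 (95% interval 5.69 to 87.7), and 0 counts over 28-2 200f against 48 over 28-2EV libraries, at least 15.5-fold lower. Among 13 laminin and basement membrane genes, 4 were higher (30.8%), including the laminin-332 chain Lamb3, and 3 lower (23.1%). With the filter applied anew, 5 were lower without 28-2 200f replicate 3, and 2 when any ID8-200f replicate was left out. In Lamb3 28-2 200f replicate 3 stood far apart, with 1.02, 1.43 and 28.8 CPM in 28-2 200f cells, against 0.0548, 0.0576 and 0 CPM in 28-2EV cells. Its 520 counts over 28-2 200f and 2 over 28-2EV libraries gave a ratio of 269 (95% interval 74.1 to 2227), and the common log2 fold change of 4.95 ± 1.17 (adjusted p = 0.0123) became 3.29 without that library. Of 26 metalloproteases and inhibitors, 9 were lower (34.6%) and 2 higher (7.69%). Lower were the membrane protease Mmp14 (-1.34 ± 0.30, adjusted p = 0.0101), the aggrecanase Adamts4 (-2.40 ± 0.40, adjusted p = 0.00189) and the inhibitor Timp3 (-0.88 ± 0.17, adjusted p = 0.00424), among others. Without 28-2EV replicate 2, 9 of the same 26 were lower and 4 higher, and 11 were lower with the filter applied anew. Leaving out any of 6 other libraries gave 7 lower.

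Adhesion and guidance receptors moved in both directions. Among 28 integrin and focal adhesion genes, 5 were higher and 5 lower. Itgb4 (2.07 ± 0.44, adjusted p = 0.00771), the hemidesmosome chain that binds laminin-332 and Itga3 (0.85 ± 0.19, adjusted p = 0.0103) rose, whereas Itgav (-0.50 ± 0.10, adjusted p = 0.0056), a chain of vitronectin receptors, fell. Itgb4 had 13.4, 10.8 and 73.8 CPM in 28-2 200f cells, against 8.22, 2.82 and 10.4 CPM in 28-2EV cells, and its log2 fold change was 1.44 without 28-2 200f replicate 3. Semaphorins, plexins and neuropilins, cues of cell guidance, gave 6 lower and 2 higher of 24, with 10 lower without 28-2EV replicate 2. The receptor Plxnd1 (-1.81 ± 0.22, adjusted p = 0.000219) and the ligands Sema6d (-1.29 ± 0.17) and Sema3b (-3.07 ± 0.53) led the decreases, and Sema3e (0.80 ± 0.16, adjusted p = 0.00599) was higher. Receptor tyrosine kinases split into 7 higher, such as Egfr (0.55 ± 0.08, adjusted p = 0.00092) and Epha7 (0.96 ± 0.13, adjusted p = 0.000442), and 5 lower of 26, such as Tyro3 (-2.02 ± 0.20, adjusted p = 5.07e-05), Flt4 (-1.51 ± 0.20, adjusted p = 0.000387) and Pdgfra. Of 16 contractile genes, 6 were lower and 0 higher, among them the actin regulator Mrtfa (-0.38 ± 0.08, adjusted p = 0.00678). At an unadjusted p under 0.05 the contractile counts were 8 lower and 1 higher, DESeq2 called 1 higher, and 1 was higher without 28-2EV replicate 2 or 28-2 200f replicate 1. Contractile genes counted 4 lower without ID8EV replicate 2, 28-2EV replicate 3 or 28-2 200f replicate 2.

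Many genes of the Wnt pathway, among them ligands and receptors, were lower. Of 31 Wnt genes tested (50 listed), 14 were lower (45.2%) and 2 higher (6.45%), beside 10.3% and 8.85% of all genes tested. These were 18 and 4 without 28-2EV replicate 2, with 1 higher without 28-2EV replicate 1. Without 28-2 200f replicate 2, 11 were lower. Among ligands, Wnt7b stood apart as higher, while Wnt5a (-1.65 ± 0.27, adjusted p = 0.00156), Wnt5b (-1.95 ± 0.27, adjusted p = 0.000496), Wnt2 (-2.28 ± 0.31, adjusted p = 0.00051) and Wnt4 (-1.36 ± 0.21, adjusted p = 0.00106) were lower. Rspo1, a secreted enhancer of Wnt signaling, had 0.193, 0 and 0.174 CPM in ID8-200f cells, against 15.2, 23.02 and 29.7 CPM in ID8EV cells. In the 28-2 line Rspo1 had 0.397, 0 and 0.06 CPM in 28-2 200f cells, against 4.16, 1.90 and 8.93 CPM in 28-2EV cells, a common log2 fold change of -6.42 ± 0.70 (adjusted p = 0.000105). The receptors Fzd2 (-0.89 ± 0.18) and Fzd4 (-0.75 ± 0.17) and the target gene Axin2 (-1.24 ± 0.28, adjusted p = 0.00999) fell, and so did the secreted inhibitor Sfrp4 (-1.64 ± 0.24, adjusted p = 0.00092). Besides Wnt7b, the member that was higher was Rnf43 (2.02 ± 0.53, adjusted p = 0.0198), without overlap in either line. Of 34 TGF-beta and BMP genes, 7 were lower and 0 higher (10 and 3 without 28-2EV replicate 2), all with changes under 2-fold, such as the ligands Bmp4 (-0.57 ± 0.12, adjusted p = 0.00712) and Tgfb2 (-0.74 ± 0.18, adjusted p = 0.0145). At an unadjusted p under 0.05 these were 10 lower and 2 higher, and DESeq2 called 2 higher. Without ID8EV replicate 2, 5 TGF-beta and BMP genes were lower. With all libraries the share of these genes that were lower was 20.6%. In the Notch pathway, Notch2 (0.35 ± 0.09, adjusted p = 0.016) and the transcription factor Rbpj (0.45 ± 0.11, adjusted p = 0.0115) were slightly higher while Notch3 was lower.

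In the common fit, more ligands of the EGF receptor and outputs of the MAPK pathway were higher than lower. Of 8 ligands tested, 3 were higher (37.5%), namely Areg, Ereg and Btc, and 0 lower, beside 8.85% and 10.3% of all genes tested. Epiregulin, Ereg, had 58.7, 93.1 and 83.4 CPM in ID8-200f cells, against 23.2, 22.1 and 11.8 CPM in ID8EV cells, and 141, 144 and 150.3 CPM in 28-2 200f cells, against 14.7, 81.6 and 19.6 CPM in 28-2EV cells (log2 fold change 1.98 ± 0.36, adjusted p = 0.0031). 28-2EV replicate 2 was again the high library of its group. Betacellulin, Btc, increased by 0.78 ± 0.14 (adjusted p = 0.0034). Of 21 MAPK feedback and output genes, 7 were higher and 2 lower (13 and 2 without 28-2EV replicate 2), and 1 was lower when any of 6 other libraries was left out. Without ID8-200f replicate 2 or 28-2 200f replicate 2, 5 MAPK genes were higher. The shares of MAPK genes were 33.3% higher and 9.52% lower in common. Their median log2 fold change was 0.698 in ID8 but -0.0251 in 28-2. Only 3 MAPK genes were higher without overlap in both lines. Ier3 (1.4204 ± 0.19, adjusted p = 0.000504), an immediate early gene, Phlda1 (1.16 ± 0.17, adjusted p = 0.000834) and the phosphatase Dusp4 (1.12 ± 0.24, adjusted p = 0.00684) were higher, and Spred3, an inhibitor of the pathway (-1.23 ± 0.13, adjusted p = 7.91e-05), was lower. TNF and NF-kB response genes went both ways, 6 higher and 6 lower of 28 (21.4% each). Leaving out single libraries gave 3 to 8 higher and 3 to 7 lower. The count of 3 lower came without ID8-200f replicate 1. That of 3 higher came without ID8-200f replicate 2, 28-2EV replicate 3 or 28-2 200f replicate 3. Csf1, the growth factor of macrophages, had 203, 199 and 207 CPM in ID8-200f cells, against 488, 505 and 595 CPM in ID8EV cells, and 62.2, 56.9 and 65.5 CPM in 28-2 200f cells, against 189, 375 and 253 CPM in 28-2EV cells, a log2 fold change of -1.76 ± 0.18 (adjusted p = 6.33e-05). Of 11 genes on the complement list, 6 were lower (54.5%) and 0 higher, without overlap in either line for those 6. Among them were C1s1, a protease of the classical pathway (-2.14 ± 0.33, adjusted p = 0.00119), and the central component C3 (-1.03 ± 0.20, adjusted p = 0.00419). C1qtnf6 (-2.44), with a larger decrease than C1s1, and C1qtnf1 (-0.93) were also among them. These encode proteins related to C1q and TNF rather than complement components.

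Several enzymes of glycolysis were higher by small amounts. Of 27 glycolysis and hypoxia genes, 12 were higher (44.4%) and 2 lower (7.41%), beside 8.85% and 10.3% of all genes tested. Enolase, Eno1, had 1871, 2158 and 1843 CPM in ID8-200f cells, against 1203, 1112 and 954 CPM in ID8EV cells, and 1543, 2159 and 1911 CPM in 28-2 200f cells, against 1109, 1413 and 992 CPM in 28-2EV cells (log2 fold change 0.76 ± 0.12, adjusted p = 0.00119). The lactate dehydrogenase Ldha (0.59 ± 0.10, adjusted p = 0.00148), the aldolase Aldoa (0.53 ± 0.09), the pyruvate kinase Pkm (0.64 ± 0.11) and the mutase Pgam1 (0.62 ± 0.11) rose alongside, none of them over 2-fold. The 2 lower members, Egln3 and Ndrg1, lost their call without 28-2 200f replicate 2, and 4 were lower without 28-2EV replicate 2. Of 27 NRF2 target and antioxidant genes, 7 were higher (25.9%) and 0 lower. At an unadjusted p under 0.05 these were 13 higher and 1 lower, and DESeq2 called 1 lower. Osgin1, an oxidative stress gene, had 242, 321 and 245 CPM in ID8-200f cells, against 86.9, 82.7 and 55.2 CPM in ID8EV cells. In the second line it had 190.4, 287 and 362 CPM in 28-2 200f cells, against 74.96, 120.4 and 87.5 CPM in 28-2EV cells, a log2 fold change of 1.71 ± 0.18 (adjusted p = 8.56e-05). The quinone reductase Nqo1 rose with 1.56 ± 0.23 (adjusted p = 0.000996), with 90.0, 96.7 and 68.3 CPM in 28-2 200f cells, against 24.5, 61.0 and 29.3 CPM in 28-2EV cells, where 28-2EV replicate 2 was the highest of its group. The glutathione transferases, which conjugate drugs and lipids, split by member rather than moving as a family. Of 16 tested, 4 were higher, led by Gsta1 (4.86 ± 0.51, adjusted p = 7.61e-05) and Gsto1 (1.11 ± 0.14, adjusted p = 0.000322), and 5 lower, led by Gstt1 (-5.12 ± 0.68, adjusted p = 0.000427) and Gstm2 (-2.93 ± 0.51, adjusted p = 0.00232), and all 9 were free of overlap in both lines. Gsta1 and Gstt1 are members of gene clusters with close copies, so their counts are less certain.

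Few genes of the cell cycle passed. The shares of p53 targets and BCL2 family genes that were lower exceeded the 10.3% of all genes tested, but depended on single libraries. Of 39 DNA replication genes, 1 was higher, the cyclin Ccne1 (1.23 ± 0.28, adjusted p = 0.00973), and 0 lower. Of 35 mitosis genes, 0 were higher and 0 lower at an FDR under 0.05 in edgeR. At an unadjusted p under 0.05 the mitosis counts were 1 higher and 0 lower, DESeq2 called 0 and 0, and limma with sample weights 14 and 0. Without 28-2EV replicate 2, 10 mitosis genes and 7 DNA replication genes were higher and 0 of either lower. Of 29 p53 targets, 3 were higher (10.3%) and 6 lower (20.7%), and leaving out single libraries gave 2 to 5 higher and 3 to 8 lower, with 5 higher without 28-2EV replicate 2 and 3 lower without ID8EV replicate 2, ID8-200f replicate 1 or 28-2 200f replicate 2. The cell cycle inhibitor Cdkn1a was higher (0.74 ± 0.14, adjusted p = 0.00334), and Pmaip1, a pro-apoptotic BH3-only protein, was lower (-1.40 ± 0.30, adjusted p = 0.00783). Of 13 BCL2 family genes, 3 were lower (23.1%) and 0 higher, including Bcl2l2, a survival protein (-0.43 ± 0.10, adjusted p = 0.0112). Leaving out 1 library gave 2 lower in 9 of the 12 fits, and 4 without 28-2EV replicate 2 or 28-2 200f replicate 1. No BCL2 family gene was free of overlap in both lines with the same direction.

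The remaining lists differed in how many members passed, beside 8.85% higher and 10.3% lower of all genes tested. Shares higher and lower were 13.0% and 13.0% for the Hippo pathway and 6.06% and 12.1% for Polycomb and DNA methylation genes. They were 7.14% and 14.3% for the small RNA machinery and 3.1% and 9.4% for ATF4 and unfolded protein response genes. Insulin-like growth factor genes gave 3 higher (33.3%) and 2 lower (22.2%) of 9, with the RNA-binding proteins Igf2bp1 (0.47 ± 0.08, adjusted p = 0.00257) and Igf2bp2 and the protease Pappa (1.56 ± 0.27, adjusted p = 0.00246) higher and the binding proteins Igfbp4 and Igfbp6 (-1.90 ± 0.33, adjusted p = 0.00217) lower. Of 19 tetraspanins, membrane organizers, 1 was higher (0 without 28-2EV replicate 1) and 4 lower (7 without 28-2EV replicate 2), with decreases in Cd82 (-0.96 ± 0.15, adjusted p = 0.0012) and Cd81 (-0.66 ± 0.15, adjusted p = 0.0103). In the Hippo pathway 3 were higher and 3 lower of 23 (9 higher without 28-2EV replicate 2, 5 without 28-2 200f replicate 1 and 2 in the other 10 fits that left out 1 library), with the coactivator Wwtr1, or TAZ, lower (-0.48 ± 0.10, adjusted p = 0.00805) and the DNA-binding partner Tead4 higher (1.11 ± 0.20, adjusted p = 0.00285). Of 33 Polycomb and DNA methylation genes 2 were higher and 4 lower (5 and 7 without 28-2EV replicate 2). Leaving out 1 library gave 1 higher in 10 of 12 fits, and 2 lower without 28-2EV replicate 1 or 3 or 28-2 200f replicate 1 or 3. Cbx6, a reader of histone methylation, was among the lower genes (-0.64 ± 0.13, adjusted p = 0.00652). Of 14 genes of the small RNA machinery 1 was higher, the processing enzyme Dicer1 (0.37 ± 0.10, adjusted p = 0.0216), and 2 lower, or 4 and 4 without 28-2EV replicate 2. Dicer1 did not pass in 4 of the 12 fits that left out 1 library, and 1 gene was lower in 8 of them. Of 30 genes of cholesterol and fatty acid synthesis 3 were higher and 0 lower (6 and 2 without 28-2EV replicate 2), but 1 was higher without ID8-200f replicate 2, 28-2 200f replicate 2 or 28-2 200f replicate 3. ATF4 and unfolded protein response genes gave 1 higher and 3 lower of 32, with 11 lower without 28-2EV replicate 2 but 1 lower in 10 of the 12 fits that left out 1 library, and 0 higher in 5 of them. Interferon-stimulated genes gave 1 higher and 1 lower of 24, with 2 higher without 28-2EV replicate 2, 5 lower without 28-2EV replicate 1 and 0 lower in 10 of the 12 fits that left out 1 library. VEGF and angiopoietin ligands gave 0 higher and 1 lower of 6 (2 lower without 28-2EV replicate 2 or 28-2 200f replicate 1). Ribosomal protein genes gave 0 higher and 1 lower of 48, with 3 lower without 28-2EV replicate 2 and 0 lower in 9 of the 12 fits. No MHC class I gene passed of 13 tested, with 2 higher and 1 lower at an unadjusted p under 0.05 and 1 higher and 0 lower in DESeq2, and 1 was higher without ID8EV replicate 3 or ID8-200f replicate 1. Among the genes named from these lists that passed, the 28-2 200f and 28-2EV ranges overlapped for Lsr, Itga3, Itgav, Timp3, Col3a1, Axin2, Fzd4, Bmp4, Tgfb2, Notch2, Rbpj, Dusp4, Ccne1, Pmaip1, Bcl2l2, Igfbp6, Cd81, Dicer1 and Pecam1, whose ID8 ranges did not.

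**Figure D4:**
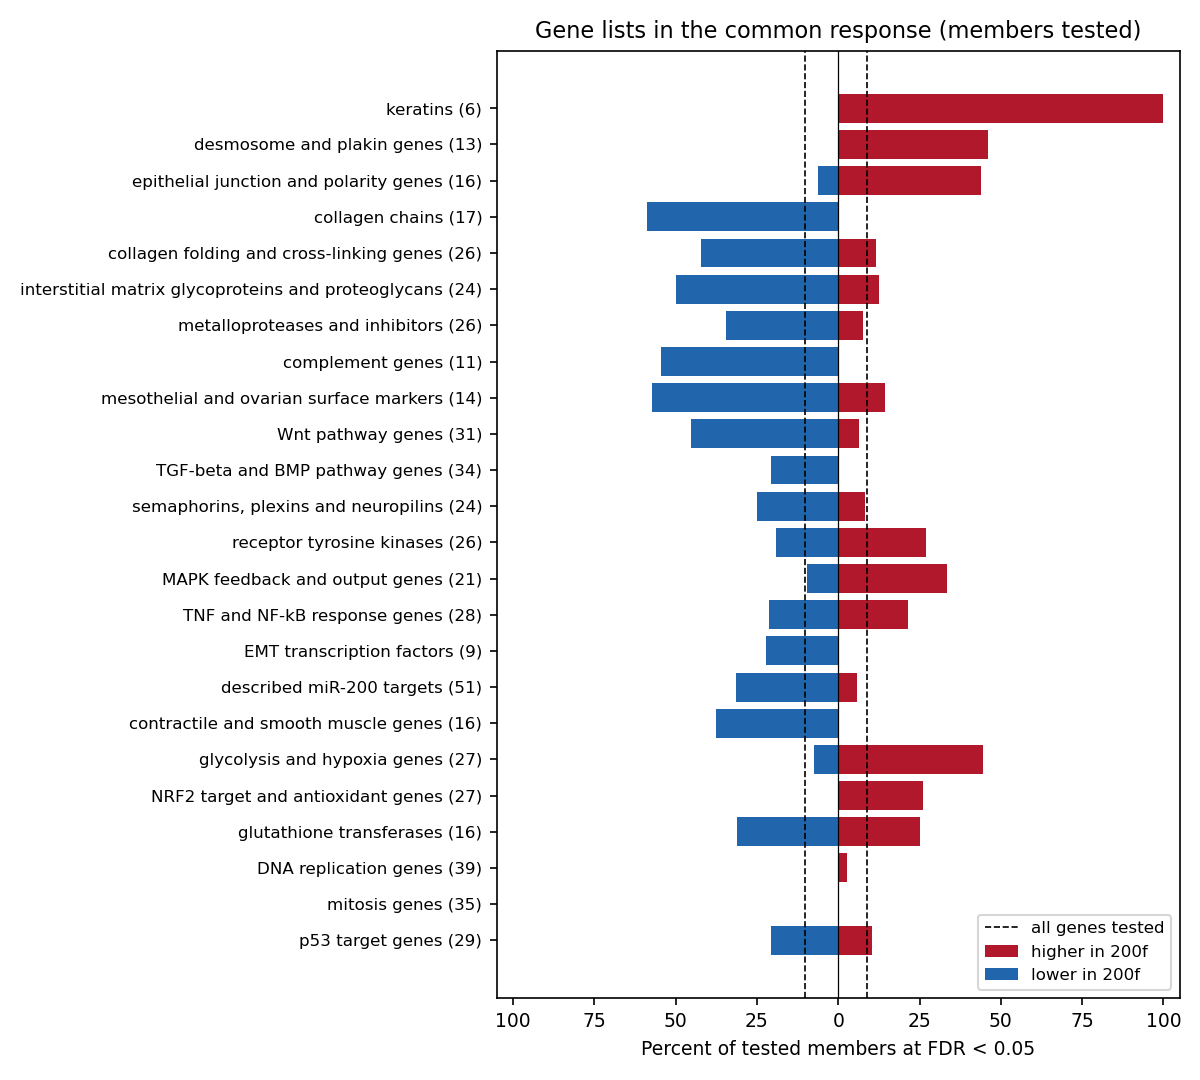
Share of the tested members of 24 gene lists that were higher (red, to the right) or lower (blue, to the left) in 200f than in EV cells at an FDR under 0.05, with the number tested in parentheses. Dashed lines mark the shares over all genes tested, 8.85% higher and 10.3% lower. Keratins reach 100% higher, and collagen chains, mesothelial markers and complement genes pass 50% lower, while mitosis genes have no bar.

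Among the transcription factors of EMT, through which the family is best known, Twist2 and Zeb2 passed as lower in common, Zeb2 mainly through 28-2. Of 9 EMT transcription factors tested of 12 listed, 2 were lower (22.2%) and 0 higher, beside 10.3% and 8.85% of all genes tested. Twist2 was lower in both lines at low counts, with 1 count over ID8-200f and 43 over ID8EV libraries, a ratio of 41.9 (95% interval 7.13 to 1694), and 2 counts over 28-2 200f and 69 over 28-2EV libraries, a ratio of 33.4 (8.89 to 281). The fitted log2 fold change of Twist2 was -4.89 ± 0.56 (adjusted p = 0.000156). Zeb2 had 34.8, 39.1 and 37.9 CPM in ID8-200f cells, against 44.4, 41.4 and 43.8 CPM in ID8EV cells, and 25.6, 19.4 and 15.8 CPM in 28-2 200f cells, against 51.7, 63.1 and 51.2 CPM in 28-2EV cells. It was lower in all 200f libraries of both lines (-0.83 ± 0.21, adjusted p = 0.0179), with log2 fold changes of -0.22 in ID8 and -1.45 in 28-2. With ID8 fitted alone, Zeb2 did not pass (edgeR adjusted p = 0.0768), and its response differed between the lines (interaction adjusted p = 0.0116). Zeb1 had 20.6, 19.9 and 23.8 CPM in ID8-200f cells, against 21.1, 21.1 and 20.4 CPM in ID8EV cells, and 11.7, 13.8 and 10.6 CPM in 28-2 200f cells, against 25.6, 20.5 and 23.4 CPM in 28-2EV cells. The ID8 ranges overlapped and those of 28-2 did not, and the common log2 fold change was -0.45 ± 0.17 (adjusted p = 0.084). The factors Snai1 (-0.24 ± 0.31, adjusted p = 0.616) and Snai2 (-0.05 ± 0.37, adjusted p = 0.935) and the filament gene Vim (-0.46 ± 0.19, adjusted p = 0.107) did not pass, whereas Twist1 did not reach the count filter in both lines.

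Of 51 described targets of the family that were tested, 16 were lower and 3 higher, beside 10.3% and 8.85% of all genes, with a median log2 fold change of -0.14. Leaving out single libraries gave 10 to 21 lower, 10 without 28-2 200f replicate 2, and 2 to 6 higher, 6 without 28-2EV replicate 2. Fhod1, a formin that assembles actin filaments, fell with -1.01 ± 0.13 (adjusted p = 0.000378), the phosphatase Ppm1f with -0.53 ± 0.10 (adjusted p = 0.00447) and the cofactor Zfpm1 with -0.72 ± 0.16 (adjusted p = 0.00893). Higher members included the Hippo kinase Lats1 (0.35 ± 0.08, adjusted p = 0.0134) and beta-catenin, Ctnnb1 (0.49 ± 0.12, adjusted p = 0.017).

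A match to the seeds was then counted in the longest annotated 3′UTR of each gene (GENCODE M21, GRCm38), as the reverse complement of bases 2 to 8, CAGTATT for miR-200b, miR-200c and miR-429 or CAGTGTT for miR-200a and miR-141, on the transcript strand only. A 3′UTR of 20 bases or more was found for 11206 of the 12498 genes tested, 277 of the 308 that passed as lower and 133 of the 139 that passed as higher. A match stood in 76 of the lower genes (27.4%) and 44 of the higher genes (33.1%), and in 3449 of all genes with a 3′UTR (30.8%). Matches of 8 letters, with an A after the seed match, stood in 7.22% of the lower genes, 8.27% of the higher genes and 8.48% of all. The median 3′UTR was 1366 bases in the lower genes, 1274 in the higher genes and 1199 in all. The share with a seed match was no greater in the genes that fell than over all genes, and their median 3′UTR was longer. Across all genes, the median common log2 fold change was 0.0004 for 950 genes with a match of 8 letters, 0.0303 for 2499 genes with a match of 7 letters only and 0.0155 for 7757 genes with none, and the quartiles of the 3 classes overlapped in every class of 3′UTR length. At an FDR under 0.05, 12.4% of the genes with a match of 8 letters were lower. This share was 9.56% with a match of 7 letters only and 10.5% with none. The order was not the same in every length class. For a 3′UTR of 4000 bases or more it was 8.47% with a match of 8 letters and 14.1% with none.

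**Figure D5:**
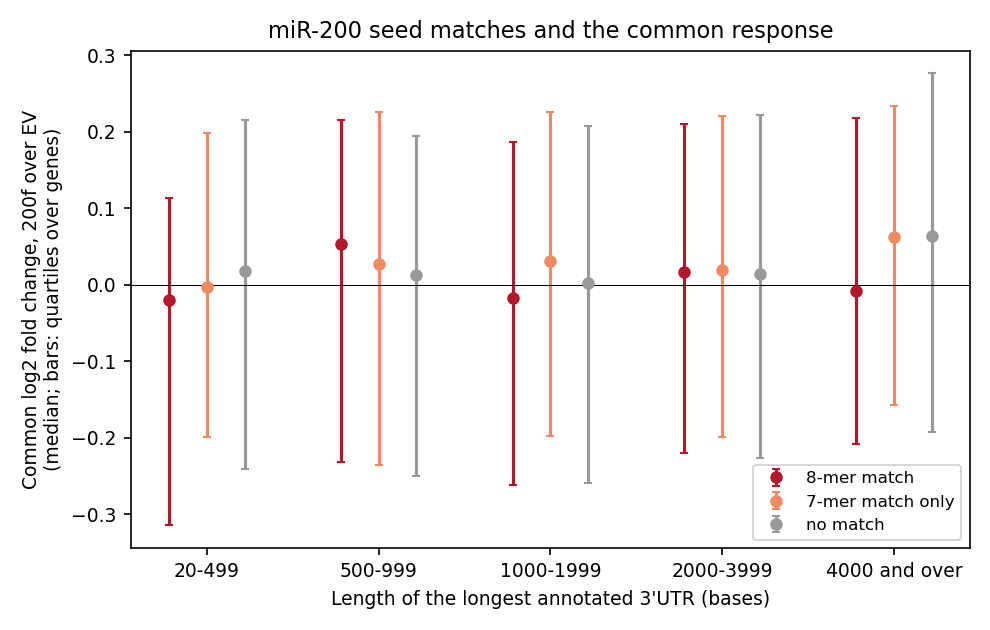
Median common log2 fold change of 200f over EV (points) and quartiles over genes (bars) by length class of the longest annotated 3′UTR, for genes with an 8-mer seed match, with a 7-mer match only and with none. All medians lie between -0.0193 and 0.0638, and the bars of the 3 classes overlap in every length class.

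Sites of 8 letters in genes that fell in both lines are given below in 30-base windows, read from the GENCODE M21 transcripts with GRCm38 coordinates and the match in capitals, because these genes are both lower and complementary to a supplied seed. The first 4 match miR-200b, miR-200c and miR-429.
Cers4, chr8:4524496-4524525 (+ strand): ggctgagtgacCAGTATTActtaacgcaga
Fhl1, chrX:56792132-56792161 (+ strand): ctcccattttaCAGTATTAatcaacgaagg
Fhod1, chr8:105329266-105329295 (- strand): agtattgtgaaCAGTATTAggtgtgtgtgt
Zcchc24, chr14:25712458-25712487 (- strand): gatgaaaatatCAGTATTAagcagccagta
The next 4 match miR-200a and miR-141.
Septin6, chrX:36914016-36914045 (- strand): ttcagagaaacCAGTGTTAgatgactcttg
Sv2a, chr3:96194174-96194203 (+ strand): cttctctccccCAGTGTTAgcaggggggct
Rassf3, chr10:121411592-121411621 (- strand): tgactgcacaaCAGTGTTAattatggaact
Upk3b, chr5:136044790-136044819 (+ strand): tgcaccacataCAGTGTTAgacacggcctc
Septin6, a cytoskeletal GTPase (-1.06 ± 0.11, adjusted p = 5.61e-05), Sv2a, a vesicle glycoprotein (-1.18 ± 0.12, adjusted p = 6.07e-05), and Rassf3, of the RASSF family (-1.18 ± 0.12, adjusted p = 7.73e-05), were lower by similar amounts in both lines. The coordinates are those of the reference annotation, an older build than the GRCm39 named for the count files, and a match of letters is a description of the sequence and not evidence of binding.

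The genes that the study named from these same libraries for EMT and migration are no independent evidence of a direction, since they had been chosen as changed in both lines. Of the 19 EMT genes so named, 18 were tested, and 5 were higher and 12 lower at an FDR under 0.05. Of the 17 migration genes, 16 were tested, and 2 were higher and 13 lower. Of the 8 genes it followed by RT-qPCR, 7 were tested, and 0 were higher and 2 lower (Twist2 and Zeb2), with 1 higher and 4 lower at an unadjusted p under 0.05 and 1 and 3 in DESeq2. Igfbp4, which binds insulin-like growth factors (-2.13 ± 0.23, adjusted p = 8.49e-05), Dock10, an activator of small GTPases (-2.50 ± 0.24, adjusted p = 3.77e-05), and Ctsh, a cathepsin (2.09 ± 0.33, adjusted p = 0.00125), were among them. Sh3rf2, a scaffold with SH3 domains, had 0.567, 0.685 and 16.9 CPM in 28-2 200f cells, against 0.548, 0.230 and 0.365 CPM in 28-2EV cells, and its log2 fold change of 4.00 ± 0.86 (adjusted p = 0.00806) was 2.40 without 28-2 200f replicate 3. Vcan, versican, a matrix proteoglycan, did not pass in common (0.59 ± 1.01, adjusted p = 0.708), and the lines went opposite ways. It had 4.78, 5.44 and 6.31 CPM in ID8-200f cells, against 30.7, 24.3 and 10.7 CPM in ID8EV cells. In 28-2 the order was reversed, with 23.3, 40.4 and 26.4 CPM in 28-2 200f cells, against 2.79, 4.72 and 1.70 CPM in 28-2EV cells. The difference between the lines was 5.27 ± 0.59 on the log2 scale (SE, interaction adjusted p = 0.000557). Flt1, a VEGF receptor, showed the same kind of split, with log2 fold changes of -1.05 in ID8 and 1.19 in 28-2 (interaction adjusted p = 0.00305).

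Among the 48 passing genes whose size differed between the lines, the 5 with the largest excess in 28-2 included genes at or near 0 counts in 28-2EV cells. Pip5k1b, a kinase that makes the lipid PIP2, had 7.87, 11.5 and 9.08 CPM in ID8-200f cells, against 1.48, 1.11 and 2.33 CPM in ID8EV cells, and 18.3, 11.5 and 19.6 CPM in 28-2 200f cells, against 0, 0 and 0 CPM in 28-2EV cells. It was at least 288-fold higher in 28-2 200f cells, and the difference of the log2 fold changes, 28-2 minus ID8, passed the interaction test (adjusted p = 0.000857). Mpzl2, an adhesion protein of epithelia, was at least 52.1-fold higher in 28-2 200f cells, with 0 counts over the 28-2EV libraries. Cysltr1, a leukotriene receptor, had 901 counts over 28-2 200f and 3 over 28-2EV libraries, a ratio of 311 (95% interval 106 to 1509). Tns4, a tensin at focal adhesions, differed at higher counts. It had 38.9, 37.5 and 40.4 CPM in ID8-200f cells, against 13.4, 12.4 and 12.9 CPM in ID8EV cells, and 360.1, 352 and 361 CPM in 28-2 200f cells, against 10.7, 8.64 and 12.7 CPM in 28-2EV cells, where the EV levels of the lines were alike and the 28-2 200f level far above that of ID8-200f (difference 3.47 ± 0.18, adjusted p = 1.44e-06). Among decreases, Adgrb2, an adhesion receptor (-1.40 in ID8 and -3.98 in 28-2), Col16a1, a fibril-associated collagen (-1.39 and -3.95), and Pxdn, a peroxidase of basement membranes (-0.69 and -3.22), fell further in 28-2. The protease receptor F2rl1 rose further in ID8 (4.85) than in 28-2 (2.56), and Podxl, the sialomucin podocalyxin, fell further in ID8 (-4.26) than in 28-2 (-0.86).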

How the data were processed

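Total RNA from 12 libraries, 3 per group, was sequenced. The authors used BBDuk for trimming and STAR for alignment, and deposited raw counts per gene made by featureCounts (version not given in the sources used here, genome build GRCm39 per the labels). Only these counts were used. edgeR 4.0.16 in R 4.3.3 was fitted with TMM factors, cell line and vector (quasi-likelihood test, Benjamini-Hochberg adjustment over 12498 genes), keeping genes that passed filterByExpr (minimum count 10, minimum total 15) in each line alone. An interaction term tested the difference between lines, and each line was also fitted alone. Log2 fold changes are 200f over EV, with SE derived from the F statistic. Intervals and floors of low counts cover counting error only, at 95% by the exact Clopper-Pearson method, and total counts of 16390953 to 23063875 per library set the depth. The script was tested on simulated counts.

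The members and the 47 gene lists were chosen with earlier results of these data known. Genes named are the 15 largest changes and the 10 smallest adjusted p in each direction with at least 5 CPM in the higher group of each line and no overlap, the 5 largest differences between lines each way, up to 4 members per list and direction by adjusted p, and those the study named, although some genes that meet this rule are not reported here. Axin2, Cd68, Col4a5, Col4a6, Fn1, Fzd2, Fzd4, Krt14, Mmp14, P3h3, Rassf3, Septin6, Serpinh1, Sv2a, Timp3, Wnt4, Wnt5a and Zfpm1 lie outside this rule and were chosen after their values were seen. Alternatives were DESeq2 1.42.0, limma 3.58.1 with sample weights, other scalings, filters, thresholds and designs, and leaving out each library, with the filter applied anew. Seed matches were read from GENCODE M21 transcripts. Sums were made in Python 3.11.15 with pandas 2.3.3, numpy 2.4.6 and scipy 1.17.1.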

Additional observations from a re-analysis of the deposited data

Results flagged for a closer look

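The response to the vectors differed between the lines for 24 of the genes named in the report, by the interaction of line and vector in edgeR at an adjusted p under 0.05, as it did for 2.83% of all genes tested. Groups of 3 libraries are too small for a test of single outlying samples. Differences are log2 fold change in 28-2 minus that in ID8, so a positive value means a more positive change of 200f over EV in 28-2. Among genes that were higher in 200f cells, the difference was 9.12 for Epcam, 8.74 for Pip5k1b, 6.67 for Mpzl2 and 5.98 for Cysltr1, all at 0 to 3 counts over the 28-2EV libraries, so that these fitted sizes depend on the prior count. It was 4.28 ± 0.97 (SE) for Pkp1, 3.47 ± 0.18 for Tns4, 2.21 ± 0.35 for Grhl1, 1.32 ± 0.27 for Patj and 0.95 ± 0.17 for Krt19, and -2.28 ± 0.43 for F2rl1, the only 1 of these 10 whose increase was larger in ID8.

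Among genes that were lower, the difference was -4.75 ± 1.04 for Scara5, -2.60 ± 0.24 for Adgrb2, -2.57 ± 0.30 for Col16a1, -2.54 ± 0.28 for Pxdn, -1.24 ± 0.23 for Zeb2 and -0.77 ± 0.15 for Fhod1, which fell further in 28-2. It was 3.39 ± 0.42 for Podxl, 1.98 ± 0.29 for Col1a1, 1.62 ± 0.38 for Pmaip1 and 1.19 ± 0.28 for Igfbp4, which fell further in ID8. Among genes that did not pass in common, it was 5.27 ± 0.59 for Vcan and 2.23 ± 0.33 for Flt1, where the lines went opposite ways, 2.31 ± 0.55 for Cdh1 and -0.98 ± 0.20 for Zeb1. The causes of these differences were not tested.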

How the results depend on the processing

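All genes that passed kept their direction under each alternative that tested them. The 447 genes (139 higher, 308 lower) became 694 in DESeq2 (220 and 474), 751 in limma with sample weights (219 and 532), 864 with no filter on low counts (302 and 562), 89 when tested against a fold of 2 (22 and 67) and 2392 at an FDR under 0.05 alone (1106 and 1286). With the mean of the line effects in a fit of 4 groups, 231 were higher. Other scalings, 1 CPM in 3 libraries of each line and a filter passed in either line gave 413 to 543. Leaving out single libraries gave 319 to 753 in all, 101 to 209 higher, 217 to 544 lower, and 291 to 667 without overlap in both lines in place of 383. The highest values were those without 28-2EV replicate 2, where 442 of the 447 still passed. Sites of 8 letters only lowered the share with a seed match to 7.22% in the lower genes and 8.48% in all. The replicate block gave 248 genes (83 and 165), and 245 of the 447 still passed. Whether the numbers pair the samples is not known, and deviations over 3 libraries per group cannot settle it. Same-numbered 200f and EV libraries deviated together with r of -0.157, 0.0766 and -0.0318 in ID8 and 0.245, 0.142 and -0.358 in 28-2. Several libraries correlated better with another number, such as 28-2 200f replicate 1 with 28-2EV replicate 3 (r of 0.518). Signs turned only for genes that did not pass. In limma, Flt1 was -0.57, Vcan -0.59, Snai1 0.26 and Snai2 0.49, and Snai2 was 0.0912 with the replicate block. Without single libraries, Flt1 ran between -0.18 and 0.26, Vcan between -0.16 and 1.31, Snai1 between -0.38 and 0.0852 and Snai2 between -0.22 and 0.39. Over the genes that met the naming rule or were added to it, 4923 of the recomputed values kept direction and call, 255 lost the call, 6 gained it and 17 turned sign. The causes were not tested. Depth limits genes near 0 counts in a group, whose fitted sizes depend on the prior count.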
